A study of Mus musculus with 8 samples.

Results

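The vacuolar proton pump (V-ATPase) is built partly from subunits that exist as 2 isoforms, one made by intercalated cells of the kidney and one made by nearly every cell. The 10 genes described here are the 5 renal isoforms Atp6v1b1, Atp6v1c2, Atp6v1g3, Atp6v0a4 and Atp6v0d2, and their ubiquitous paralogs Atp6v1b2, Atp6v1c1, Atp6v1g1, Atp6v0a1 and Atp6v0d1. They were chosen by gene symbol, and all 10 of 10 symbols were found among 35976 listed genes. RNA was measured in 8 libraries of mouse kidney at postnatal day 3, as 2 libraries each of male control, female control, male mutant and female mutant. Controls were Slc12a3 Cre/+; C1 +/+ by genotype, whereas mutants carried C1 YAP/+ on the same Slc12a3 Cre/+ background, so that all libraries have the Cre allele. Mutants are described as a gain of function of Yap1, a transcriptional co-activator of the Hippo pathway, switched on in the distal nephron. The Cre is named for Slc12a3, whose product takes up sodium chloride in the distal convoluted tubule. The meaning of C1 is not explained.

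The pump has a cytosolic V1 sector, which hydrolyses ATP, and a V0 sector in the membrane, which carries protons across it. In most cells it acidifies lysosomes and other compartments. Intercalated cells of the connecting tubule and collecting duct also place pumps in the plasma membrane, where they secrete acid into the urine or return it to the blood. Loss of human ATP6V1B1 or ATP6V0A4 causes distal renal tubular acidosis, often with hearing loss. In mice the forkhead factor Foxi1 is needed for intercalated cells and for their expression of Atp6v1b1 and Atp6v0a4.

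Levels are given as scaled RPKM, which are the RPKM values the authors deposited (reads normalised to gene length and to library total), divided by a library scaling factor between 0.970 and 1.02. Genotypes were compared with limma on log2(scaled RPKM + 0.1) with sex as a covariate, over all 18156 genes with enough reads, and p-values were adjusted over all of these by the Benjamini-Hochberg method. Fold changes are on that scale. Totals worked back from the RPKM steps were between 78.2 and 87.1 (1e6 reads) in the 4 replicate 1 libraries, called deep here, and between 22.8 and 25.2 (1e6 reads) in the 4 replicate 2 libraries, called shallow. Each depth class holds 1 library of every group. Fits within a depth class therefore rest on 4 libraries, and their p-values lean on variance pooled over genes. A call kept or lost within a depth class thus says little beyond the log2 change given with it. Whether both libraries of a group come from different animals is not stated; p-values refer to library-to-library spread, which may be technical. In whole kidney, fewer cells of a type and less RNA per cell cannot be told apart.

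Promoter windows of 6 of the 10 genes were found in the RefSeq table for GRCm38.p6, each running from 250 bases before to 50 bases after a transcription start. The windows shown are of Atp6v1b1, Atp6v0a4 and Atp6v0d1, because they hold matches to motifs of factors named for this gene family or this mutant; all are written 5′ to 3′ on the strand of the gene, with the matches in capitals.
Atp6v1b1, chr6:83742767-83743066, plus strand: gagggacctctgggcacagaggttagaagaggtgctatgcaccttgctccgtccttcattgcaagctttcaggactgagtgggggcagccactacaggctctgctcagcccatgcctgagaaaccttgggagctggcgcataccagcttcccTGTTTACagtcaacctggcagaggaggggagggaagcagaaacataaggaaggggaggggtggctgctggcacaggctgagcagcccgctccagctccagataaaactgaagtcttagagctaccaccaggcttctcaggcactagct
Atp6v0a4, chr6:38124537-38124836, minus strand: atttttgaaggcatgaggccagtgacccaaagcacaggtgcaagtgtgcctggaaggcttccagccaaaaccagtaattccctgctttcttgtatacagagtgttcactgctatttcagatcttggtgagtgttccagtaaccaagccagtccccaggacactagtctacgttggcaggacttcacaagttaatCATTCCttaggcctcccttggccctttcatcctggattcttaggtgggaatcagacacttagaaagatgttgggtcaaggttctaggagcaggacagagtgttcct
Atp6v0d1, chr8:105566015-105566314, minus strand: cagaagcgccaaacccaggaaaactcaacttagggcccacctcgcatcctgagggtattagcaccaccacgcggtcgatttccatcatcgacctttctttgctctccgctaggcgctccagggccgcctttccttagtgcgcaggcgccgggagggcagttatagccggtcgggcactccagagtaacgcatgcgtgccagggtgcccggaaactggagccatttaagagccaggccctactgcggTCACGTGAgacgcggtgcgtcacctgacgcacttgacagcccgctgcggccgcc

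The capitals in the Atp6v1b1 window are the forkhead core TGTTTAC, 98 bases before the start site, which 2.69% of 16921 promoter windows of tested genes hold on either strand. The capitals in the Atp6v0a4 window are CATTCC, a core bound by TEAD factors, the DNA-binding partners of YAP, 56 bases before the start. CATTCC is held by 13.0% of windows. The capitals in the Atp6v0d1 window are TCACGTGA, an E-box with its flanks as bound by the lysosomal regulator TFEB, which contains the shorter CACGTG. The long form is held by 1.5% of windows and the short form by 8.91%. Among the other 3 windows, that of Atp6v0a1 holds TGATTCA, a match to the AP-1 motif TGANTCA that 5.66% of windows hold. Those of Atp6v1g3 and Atp6v1c2 hold none of the 6 strings searched, which also included the forkhead variant TATTTAC. Among renal isoforms the windows of Atp6v1b1, Atp6v0a4 and Atp6v1g3 have 3, 1 and 2 CpG pairs, and that of Atp6v1c2 has 22. The ubiquitous Atp6v0d1 has 26 and Atp6v0a1 has 7, against a median of 17 over all windows. CpG number thus did not divide the renal from the ubiquitous windows. A match describes the letters of these windows and was not tested as a binding site.

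All 5 renal isoforms fell in mutant kidneys, by 2.01-fold to 3.08-fold, and the control and mutant libraries overlapped for none of the 5. Of all genes tested, 26.2% passed, 13.6% as lower and 12.6% as higher in mutants. The genotypes did not overlap for 30.4% of genes, with all mutant libraries below all controls for 15.4% and above them for 15%. The median log2 change of the renal isoforms was -1.37, against -0.01 over all genes tested. Of the 5 ubiquitous paralogs, Atp6v1b2 and Atp6v0d1 fell, by smaller amounts, and 3 did not pass the test. Among those 3, Atp6v1g1 passed once replicate number was added to the model as a block. The median log2 change of the ubiquitous paralogs was -0.32.

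**Figure D1:**
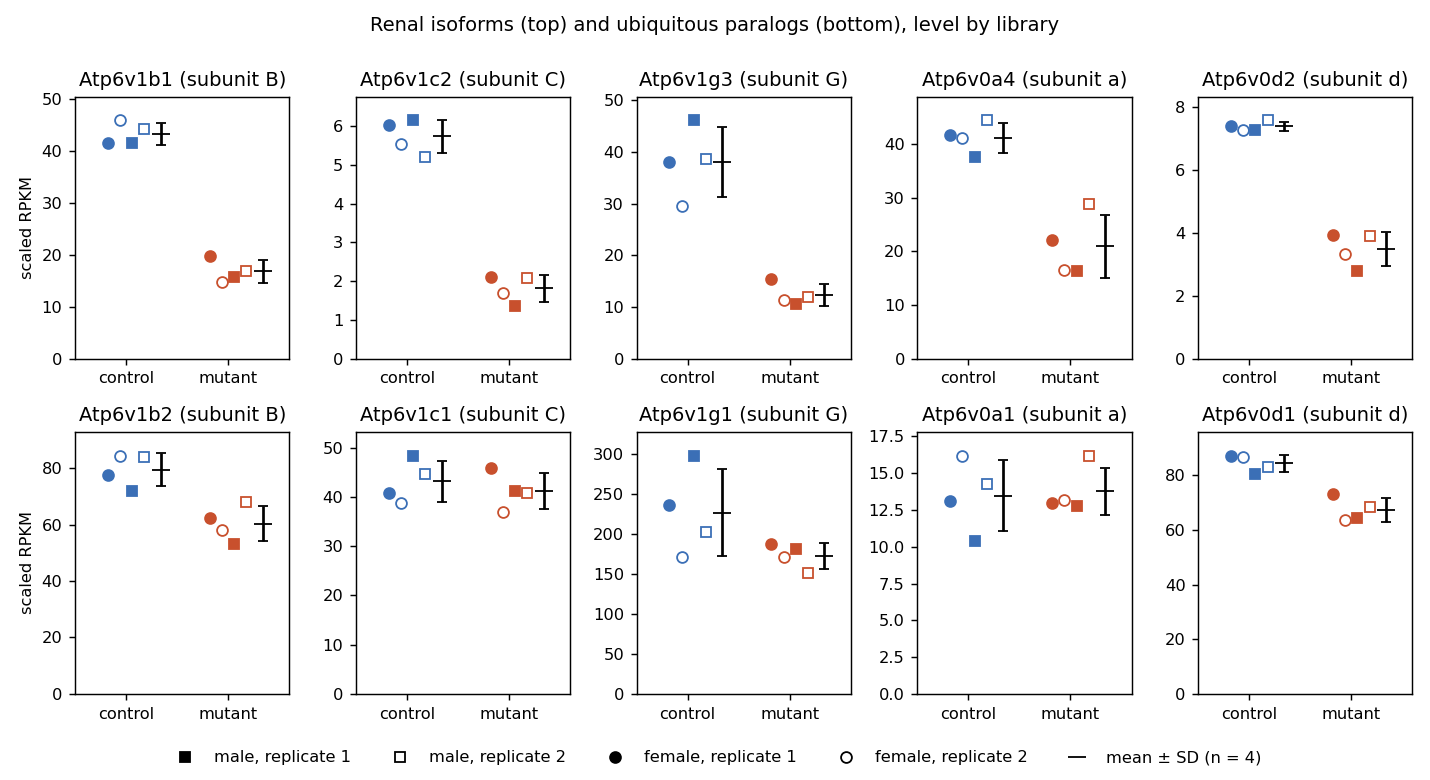
Level of each of the 10 genes in scaled RPKM (vertical axes from 0) in the 4 control and 4 mutant libraries, with the renal isoforms in the top row and each ubiquitous paralog below its partner. Squares are male and circles female libraries, filled symbols are replicate 1 and open symbols replicate 2, and bars are means ± SD. In the top row every mutant library lies below every control library, while in the bottom row this holds for Atp6v1b2 and Atp6v0d1 and not for Atp6v1c1, Atp6v1g1 or Atp6v0a1.

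The B subunit contributes to the nucleotide-binding ring of V1, and Atp6v1b1 (chromosome 6, 83742990 to 83758855, GRCm38) encodes its renal form. Scaled RPKM of Atp6v1b1 was 41.5 and 45.8 in the female controls, 41.4 and 44.2 in the male controls, 19.8 and 14.8 in the female mutants and 15.7 and 16.8 in the male mutants, replicate 1 first in each pair. Every mutant library lay far below the lowest control library, and female mutant replicate 1 was the highest of the mutants. The means were 43.2 ± 2.17 and 16.8 ± 2.19 (SD, n = 4), a 2.58-fold fall with a 95% interval of 2.21 to 3.02 (limma, adjusted p = 2.96e-05).

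Its paralog Atp6v1b2 (chromosome 8, 69088646 to 69113711), the form used in lysosomes of most cells, stood at 77.6 and 84.3 in the female controls, 72.0 and 83.9 in the male controls, 62.3 and 58.0 in the female mutants and 53.2 and 67.8 in the male mutants. The genotypes did not overlap, but the highest mutant and the lowest control library were close. Atp6v1b2 fell 1.32-fold with an interval of 1.13 to 1.54, from 79.5 ± 5.86 to 60.3 ± 6.23 (SD, n = 4; limma, adjusted p = 0.0163). The call was lost without male control replicate 2 (adjusted p = 0.0574), female mutant replicate 2 (0.0527) or male mutant replicate 1 (0.0547), over a range of 0.00843 to 0.0574 when each library was left out in turn by limma. It was also lost within the deep (0.064) and the shallow libraries (0.0504), where the log2 changes were -0.38 and -0.42.

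The C subunit ties the stalks of the pump to its V0 sector, and Atp6v1c2 (chromosome 12, 17284721 to 17329359) is the form found in kidney and few other tissues. Atp6v1c2 was at 6.04 and 5.54 in the female controls, 6.15 and 5.21 in the male controls, 2.12 and 1.70 in the female mutants and 1.37 and 2.07 in the male mutants. It showed the largest fall of the 10 genes, with Atp6v1g3 almost equal to it: 3.08-fold with an interval of 2.46 to 3.86, from 5.73 ± 0.438 to 1.81 ± 0.353 scaled RPKM (SD, n = 4; limma, adjusted p = 7.64e-05). Its annotated exons share 50 of 2174 bases with the oppositely oriented Pdia6, and the strand setting of the read counting is not given in the sources used here.

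The ubiquitous Atp6v1c1 (chromosome 15, 38661933 to 38692446) had almost the same level in both genotypes. Atp6v1c1 was at 40.7 and 38.8 in the female controls, 48.4 and 44.7 in the male controls, 45.8 and 37.0 in the female mutants and 41.3 and 40.8 in the male mutants. The genotypes overlapped over most of their range. The log2 change was -0.06 with a 95% interval of -0.27 to 0.14 (limma, adjusted p = 0.664), so that a change of the size seen in Atp6v1c2 lies outside the interval.

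The G subunit forms part of the peripheral stalks, and Atp6v1g3 (chromosome 1, 138273738 to 138289462) is its kidney form. Atp6v1g3 was at 38 and 29.6 in the female controls, 46.1 and 38.6 in the male controls, 15.3 and 11.3 in the female mutants and 10.6 and 11.9 in the male mutants. The female controls were below the male controls of the same replicate number, and the mutants lay far below both. Atp6v1g3 fell 3.08-fold with an interval of 2.40 to 3.94, from 38.1 ± 6.74 to 12.3 ± 2.08 (SD, n = 4; limma, adjusted p = 0.000133). The log2 change was -1.90 in males and -1.34 in females, and the difference between the sexes did not pass (limma interaction, unadjusted p = 0.0686, adjusted p = 0.948).

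Atp6v1g1 (chromosome 4, 63544772 to 63550750), its ubiquitous partner, was the most abundant of the 10 genes. Atp6v1g1 was at 236 and 171 in the female controls, 298 and 203 in the male controls, 188 and 171 in the female mutants and 181 and 151 in the male mutants. The deep libraries were above the shallow ones in all 4 groups, and the lowest control library lay within the mutant range. The log2 change was -0.37 with an interval of -0.75 to 0.01 (limma, adjusted p = 0.143), and the depth classes gave -0.53 (deep) and -0.21 (shallow). Leaving out female control replicate 2 brought it past the threshold (limma, adjusted p = 0.0406; 0.0406 to 0.311 over the 8 libraries left out in turn). With replicate number added to the model as a block, Atp6v1g1 passed with all libraries kept (limma, adjusted p = 0.0397). Its transcript has a processed pseudogene copy, Gm13453, with 99.4% identity over 357 bases, so reads could be shared with that copy.

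The a subunit holds the path of the protons through the membrane, and Atp6v0a4 (chromosome 6, 38048483 to 38124586) encodes the form of intercalated cells, which the proximal tubule also makes. Atp6v0a4 was at 41.8 and 41.2 in the female controls, 37.6 and 44.5 in the male controls, 22.2 and 16.6 in the female mutants and 16.3 and 28.8 in the male mutants. Male mutant replicate 2 was the highest mutant library and female mutant replicate 1 the next. Atp6v0a4 fell 2.01-fold with an interval of 1.52 to 2.67, from 41.3 ± 2.82 to 21.0 ± 5.90 (SD, n = 4; limma, adjusted p = 0.0034), the smallest fall and the widest spread among mutants of the renal isoforms. The annotated exons of Atp6v0a4 share 62 of 4973 bases with Tmem213 on the other strand and 259 with D630045J12Rik on the same strand.

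Atp6v0a1 (chromosome 11, 101009452 to 101063719), the ubiquitous a subunit described here, did not differ beyond its spread. Atp6v0a1 was at 13.1 and 16.2 in the female controls, 10.4 and 14.2 in the male controls, 13.0 and 13.2 in the female mutants and 12.8 and 16.2 in the male mutants. The lowest and the highest of the 8 values were both control libraries. The log2 change was 0.04 with an interval of -0.28 to 0.36 (limma, adjusted p = 0.872), and the depth classes gave 0.14 (deep) and -0.06 (shallow).

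The d subunit links the rotor to the membrane ring, and Atp6v0d2 (chromosome 4, 19876841 to 19922605) is the form of intercalated cells, macrophages and osteoclasts. Atp6v0d2 was at 7.42 and 7.29 in the female controls, 7.27 and 7.58 in the male controls, 3.94 and 3.34 in the female mutants and 2.78 and 3.90 in the male mutants. The control libraries were nearly alike, and the mutant libraries varied more. Atp6v0d2 fell 2.10-fold with an interval of 1.75 to 2.53, from 7.39 ± 0.144 to 3.49 ± 0.546 (SD, n = 4; limma, adjusted p = 0.000245).

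Macrophage markers moved the other way: all 15 of 15 rose, among them the complement gene C1qc (log2 1.90) and the cathepsin S gene Ctss (2.14), and their summed level was 79.3 to 99.8 scaled RPKM in controls and 321 to 383 in mutants. Of 6 tested osteoclast genes 1 rose, 1 fell and 4 did not pass, near the 12.6% higher and 13.6% lower over all genes tested. Ocstamp and Dcstamp, which osteoclast fusion needs, had too few reads to be tested. Acp5, the tartrate-resistant phosphatase, was 1.37-fold lower, with no call within the shallow libraries (limma, adjusted p = 0.0738). Calcr, the calcitonin receptor, was higher at a level below 1 in both genotypes (log2 0.66, limma adjusted p = 0.026), a call lost within both depth classes (0.0735 and 0.145) and with no filter on low values (0.0509). It was also lost without female control replicate 1, male control replicate 2, female mutant replicate 1 or either male mutant library (limma, adjusted p between 0.057 and 0.0722). The part of other cell types in the level of Atp6v0d2 was not tested.

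Atp6v0d1 (chromosome 8, 105524465 to 105566047), the ubiquitous d subunit, was at 87.1 and 86.6 in the female controls, 80.6 and 83.2 in the male controls, 73.2 and 63.7 in the female mutants and 64.4 and 68.5 in the male mutants. All mutant libraries were below all control libraries. Atp6v0d1 fell 1.25-fold with an interval of 1.12 to 1.40, from 84.4 ± 3.07 to 67.5 ± 4.42 (SD, n = 4; limma, adjusted p = 0.0105). Within the deep libraries the log2 change was -0.29 (adjusted p = 0.133) and within the shallow ones -0.36 (adjusted p = 0.0945), with the call lost in each.

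The renal isoforms fell within each depth class too, in fits whose p-values lean on variance pooled over genes. By depth class, deep first, log2 changes were -1.23 and -1.51 for Atp6v1b1, -1.78 and -1.47 for Atp6v1c2, -1.71 and -1.53 for Atp6v1g3, -1.06 and -0.96 for Atp6v0a4, and -1.12 and -1.02 for Atp6v0d2. The largest adjusted p among them was 0.00747 (limma), for Atp6v1g3 in the deep libraries. Within each sex the renal isoforms had log2 changes between -1.90 and -0.91. All passed in females, and all except Atp6v0a4 passed in males, where its log2 change was -0.91 (limma, adjusted p = 0.0548) against -1.11 in females (0.0333). No member passed for a genotype by sex interaction (limma, lowest adjusted p = 0.948). Of all genes tested, 0% passed for the interaction and 555 had an unadjusted p below 0.05.

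**Figure D2:**
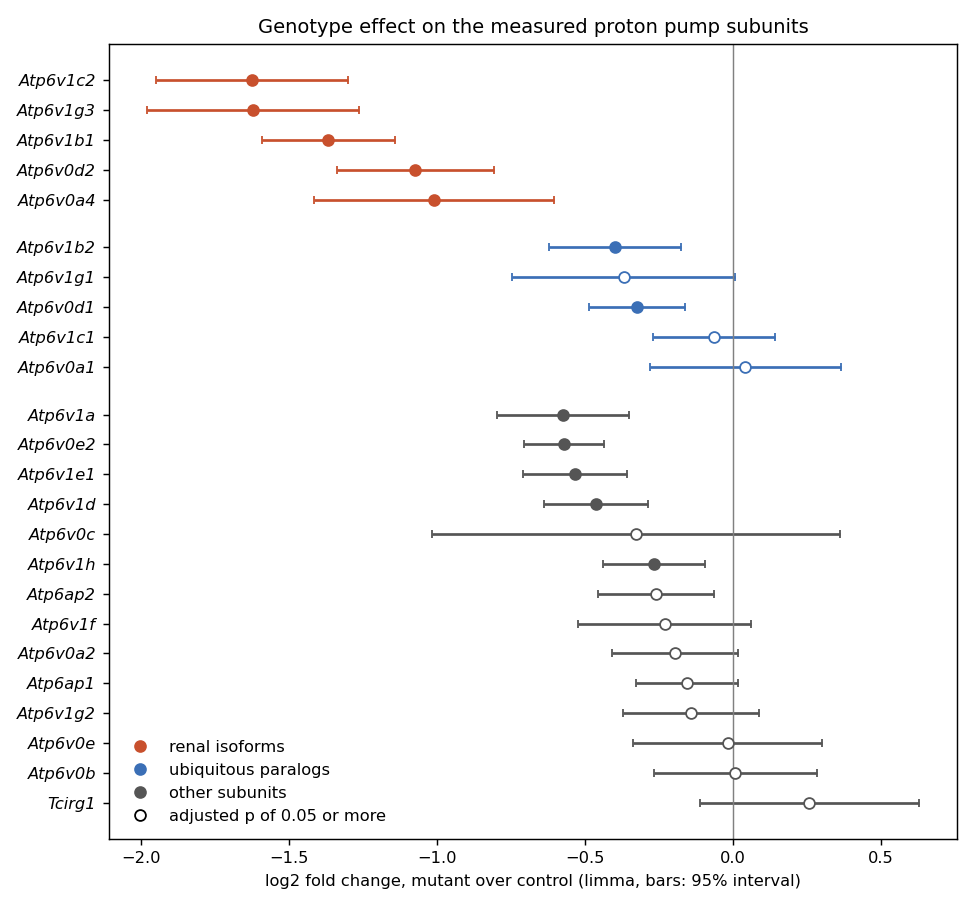
Log2 fold change of mutant over control (horizontal axis) with 95% intervals from limma for the pump subunit genes with enough reads, in the groups renal isoforms, ubiquitous paralogs and other subunits. Filled points passed an adjusted p of 0.05. The renal isoforms lie between -1.62 and -1.01, and the other subunits between -0.57 and 0.26.

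Each renal isoform fell relative to its own paralog. The ratio of the partners was taken within a library, which removes the library scaling apart from the pseudocount, and the genotypes were compared by an exact two-sided permutation test over the 70 splits of 8 libraries. All 5 ratios gave an exact permutation p = 0.0286, the smallest these splits allow. The p-values are unadjusted, with 5 ratios tested. This p says only that the genotypes did not overlap, as was so for 30.4% of single genes tested. The share among ratios of other gene pairs was not computed. The ratio of Atp6v1c2 to Atp6v1c1 fell 2.95-fold, with log2 ratios of -3.08 to -2.73 in controls and -4.82 to -4.23 in mutants. That of Atp6v1g3 to Atp6v1g1 fell 2.38-fold, from between -2.69 and -2.39 to between -4.08 and -3.61.

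In the V0 sector the ratio of Atp6v0a4 to Atp6v0a1 fell 2.07-fold, from log2 ratios of 1.34 to 1.84 in controls to 0.33 to 0.83 in mutants. Atp6v0a4 therefore stayed the more abundant partner per length in all 8 libraries. The ratio of Atp6v1b1 to Atp6v1b2 fell 1.96-fold, from -0.92 to -0.80 in controls to -2.01 to -1.65 in mutants, and that of Atp6v0d2 to Atp6v0d1 fell 1.68-fold, from -3.55 to -3.44 to -4.48 to -4.10. Mutant minus control differences of the log2 ratio, deep class first, were -0.85 and -1.09 for B, -1.75 and -1.37 for C, -1.18 and -1.32 for G, -1.20 and -0.91 for a, and -0.84 and -0.66 for d. The ratios were not tested within a depth class.

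**Figure D3:**
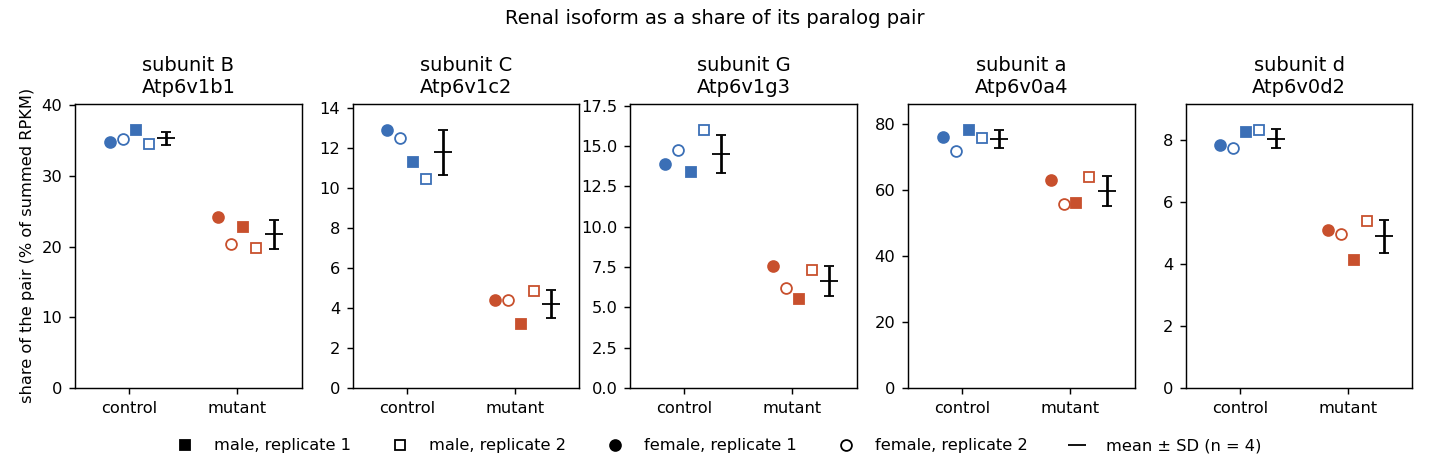
Renal isoform as a percentage of the summed scaled RPKM of its pair (vertical axes from 0), by library, for the B, C, G, a and d subunits; symbols are as in the plot of levels, with mean ± SD at the right of each group. In each panel the 4 mutant libraries lie below the 4 control libraries, and only for subunit a is the share above 50% in both genotypes.

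As a share of the summed level of its pair, Atp6v1b1 went from 35.3 ± 0.885% in controls to 21.8 ± 2.05% in mutants (SD, n = 4). Atp6v1c2 made up 11.8 ± 1.13% and 4.21 ± 0.704%, Atp6v1g3 14.5 ± 1.15% and 6.65 ± 0.933%, and Atp6v0d2 8.06 ± 0.298% and 4.90 ± 0.533%. Atp6v0a4 made up 75.5 ± 2.72% and 59.7 ± 4.47%. When all 4 a subunit genes were counted, Atp6v0a4 held 58.4 ± 2.07% in controls and 41.7 ± 5.57% in mutants, Atp6v0a1 19.0% and 27.9%, Atp6v0a2 18.5% and 23.3%, and Tcirg1, the a subunit of osteoclasts and immune cells, 4.15% and 7.17%.

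The drop in summed level came from different partners at different positions. At B the pair went from 123 ± 7.86 to 77.1 ± 7.46 scaled RPKM (SD, n = 4), of which Atp6v1b1 lost 26.5 and Atp6v1b2 19.1. At a the pair went from 54.7 ± 4.74 to 34.7 ± 7.37, and Atp6v0a4 lost 20.3 while Atp6v0a1 changed by less than its spread. At d the pair went from 91.8 ± 3.08 to 70.9 ± 4.87, and Atp6v0d1 lost 17.0 against 3.90 for Atp6v0d2. At G the pair went from 265 ± 60.6 to 185 ± 17.0, with the wide control spread of Atp6v1g1. At C the pair was at 48.9 ± 4.38 and 43.0 ± 3.79, a difference near the spread between libraries.

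Per length, control levels ran from Atp6v1g1 at 227 ± 54.2 scaled RPKM (SD, n = 4) through Atp6v0d1 at 84.4 and Atp6v1b2 at 79.5, which did not differ beyond their spread. Atp6v1b1 (43.2), Atp6v1c1 (43.2), Atp6v0a4 (41.3) and Atp6v1g3 (38.1) followed, with overlapping ranges. Atp6v0a1 (13.5), Atp6v0d2 (7.39) and Atp6v1c2 (5.73) were the lowest, each separate from the next. In mutants Atp6v1c1 (41.2) stood above Atp6v0a4 (21.0), Atp6v1b1 (16.8), Atp6v0a1 (13.8) and Atp6v1g3 (12.3) in all 4 libraries. The paralogs are different enough in sequence to be told apart: aligned coding sequences were 76.2% identical for B, 69.5% for a, 66.5% for C, 65.9% for d and 64.0% for G, with a longest identical run of 26 bases, in the B pair.

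Of 14 other pump subunit genes with enough reads, 5 fell, 0 rose and 9 did not pass, with a median log2 change of -0.25. The shares over all genes tested were 13.6% lower and 12.6% higher. Atp6v1a, the catalytic A subunit that has no renal isoform, was 1.49-fold lower, at 89.2 ± 8.72 in controls and 59.8 ± 5.37 in mutants (SD, n = 4; limma, adjusted p = 0.00283). The E subunit gene Atp6v1e1 fell 1.45-fold, the rotor subunit gene Atp6v1d 1.38-fold, the small membrane subunit gene Atp6v0e2 1.49-fold and the regulatory H subunit gene Atp6v1h 1.20-fold. The call of Atp6v1d was lost in the shallow libraries (limma, adjusted p = 0.0838). That of Atp6v1h was lost in both depth classes (0.0567 and 0.483) and without any 1 of 7 of the 8 libraries, all except female control replicate 2 (0.0122 to 0.108 by limma over the 8).

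Those that did not pass were Atp6ap2 (log2 -0.26), Atp6v1f (-0.23), Atp6v0a2 (-0.20), Atp6ap1 (-0.16), Atp6v1g2 (-0.14), Atp6v0e (-0.02), Atp6v0b (0.01), Tcirg1 (0.26) and Atp6v0c (-0.33). Atp6ap2, an accessory subunit that is also the prorenin receptor, lay just outside the threshold (limma, adjusted p = 0.0561) and passed under 6 of the 18 alternatives run. Tcirg1 passed without male control replicate 2 (log2 0.42, limma adjusted p = 0.0435; 0.0435 to 0.558 over the 8 libraries left out in turn). Atp6v0c, the proton-carrying ring subunit, had a 95% interval of -1.02 to 0.36. It shares 99.8% of 465 bases with the pseudogene Atp6v0c-ps2, to which reads were also assigned. Whether those reads come from the pseudogene was not tested, and neither was the joint level of both. The result for Atp6v0c alone therefore cannot say whether its RNA changed. Atp6v1e2, the testis form of E, had too few reads to be tested.

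Among 12 genes for the assembly and regulation of the pump, 2 fell, 0 rose and 10 did not pass, with a median of -0.18. Over all genes tested 13.6% fell, so the count of falls is near that share. Rogdi, a component of the complex that joins V1 to V0, was 1.81-fold lower, at 42.5 ± 1.84 in controls and 23.4 ± 1.72 in mutants (SD, n = 4; limma, adjusted p = 7.82e-05), with -0.87 (deep) and -0.85 (shallow) by depth class. Tldc2, a TLDc-domain gene of a family that binds the pump, fell 2.38-fold from 0.971 ± 0.221 to 0.354 ± 0.106 (SD, n = 4; limma, adjusted p = 0.00247). The assembly factor genes Vma21 (log2 -0.12), Tmem199 (0.08) and Ccdc115 (0.00, with an interval of -0.42 to 0.42) did not pass. Neither did Dmxl1 (-0.30), Dmxl2 (0.04) and Wdr7 (-0.29) of the same joining complex, the TLDc genes Ncoa7 (-0.31), Oxr1 (0.04) and Tldc1 (-0.24), or Tbc1d24 (-0.13). Dmxl1 passed without male control replicate 1 (limma, adjusted p = 0.0361; 0.0361 to 0.24 over the 8 libraries left out in turn), and Ncoa7 without male mutant replicate 2 (0.0397; 0.0397 to 0.307).

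Lysosomal genes had a median log2 change of -0.15, with 2 higher, 5 lower and 18 not passing of 25. Over all genes tested 12.6% were higher and 13.6% lower, so these counts do not set the list apart. Ctsd, the cathepsin D protease gene, rose 1.92-fold and Gla, the alpha-galactosidase gene, 1.38-fold, while Hexa, which encodes a lysosomal glycosidase subunit, fell 1.46-fold (limma, adjusted p = 0.00012, 0.0102 and 0.000932). The Gla call was lost in the deep libraries (limma, adjusted p = 0.0707).

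Intercalated cell markers without pump subunits fell in 15 of 20 cases, 0 rose and 5 did not pass, with a median of -1.21. The shares over all genes tested were 13.6% lower and 12.6% higher in mutants. The list contains Atp12a, a proton-potassium pump gene, beside transporters and regulators, and its summed level was 328 to 354 scaled RPKM in controls and 152 to 182 in mutants. Rhbg, an ammonium transporter gene, fell 4.44-fold, Slc26a4, the pendrin gene, 5.99-fold, Slc4a1, the basolateral bicarbonate exchanger gene, 7.11-fold and Car12, a carbonic anhydrase gene, 3.44-fold (limma, adjusted p = 5.8e-07, 5.74e-06, 1.01e-05 and 8.96e-06). Foxi1, named here for the motif and after its values were seen, fell 1.58-fold from 9.69 ± 0.905 to 6.12 ± 0.676 (SD, n = 4; limma, adjusted p = 0.00222). Log2 changes over this list ran from -2.83 to -0.11, and those of the 5 renal subunits lay inside that range. So did the ubiquitous Atp6v1b2 (-0.40), Atp6v1g1 (-0.37) and Atp6v0d1 (-0.32), while Atp6v1c1 (-0.06) and Atp6v0a1 (0.04) did not. A range this wide does not set the renal subunits apart.

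Other tubule lists moved with these genes. Principal cell markers fell in 9 of 11 cases (median -0.87), among them Aqp4, a water channel gene, 2.69-fold, Hsd11b2, which protects the mineralocorticoid receptor, 2.17-fold, Kcne1, a potassium channel subunit gene, 2.04-fold and Elf5, a transcription factor gene, 1.83-fold. Proximal tubule markers fell in 13 of 15 cases (median -1.91), with summed levels of 2343 to 2605 scaled RPKM in controls and 643 to 762 in mutants. Distal convoluted tubule markers fell in 11 of 12 cases and 1 rose (median -1.24). For all 3 lists, the shares over all genes tested were 13.6% lower and 12.6% higher. Slc12a3 itself, which the Cre allele is named for, fell 9.73-fold, with log2 changes of -2.83 (deep) and -3.74 (shallow). The part of these cell types in the levels of the pump genes was not tested.

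**Figure D4:**
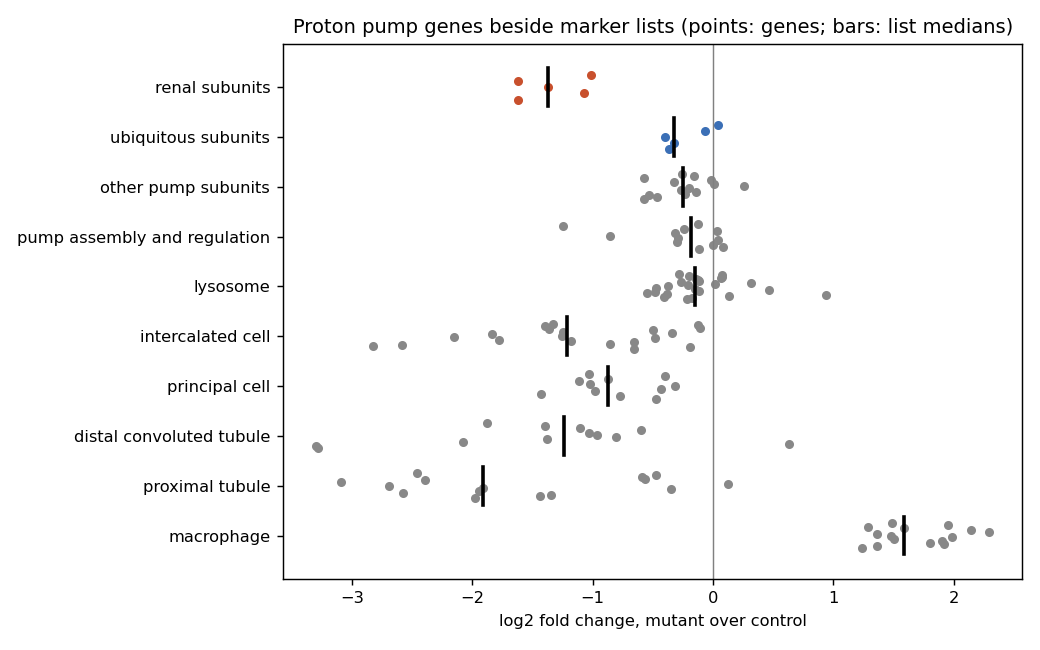
Log2 fold change of mutant over control (horizontal axis) for each tested gene of the pump groups and of 6 comparison lists; points are genes and black bars list medians. The median of the renal subunits (-1.37) lies near those of the intercalated cell (-1.21) and distal convoluted tubule (-1.24) lists. It lies between those of the proximal tubule (-1.91) and principal cell (-0.87) lists. That of the ubiquitous subunits is -0.32, against -0.25 for other pump subunits, -0.18 for pump assembly and regulation and -0.15 for lysosomal genes.

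The genes with the profile most like the mean of the 5 renal subunits were sought over the 8 libraries, by the root mean square difference of centred log2 levels among genes with at least 1 read per 1e6 reads on average. They were Susd5 (difference 0.08), Slc37a4, the glucose-6-phosphate transporter gene (0.09), Kynu, the kynureninase gene (0.09), Abhd3 (0.10), Grhpr, the glyoxylate reductase gene (0.11) and Fmo2, a flavin monooxygenase gene (0.11). No intercalated cell marker was among these 6. That list has 20 genes among 18156 tested, so their absence cannot say where the renal subunits are expressed. The profile of the ubiquitous subunits was most closely matched by Camkmt (0.02), Galc, a lysosomal galactosidase gene (0.03), Lamp1, a lysosomal membrane protein gene (0.03), Slc30a9 (0.04), Pi4k2a, a lipid kinase gene (0.04) and Slc37a3 (0.04). All profiles share the same 8 libraries and the same genotype difference.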

How the data were processed

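Poly(A) RNA of 8 mouse kidney libraries was measured by RNA-seq. The authors deposited RPKM per gene with gene lengths; STAR, featureCounts and the mm10 build are listed, without versions, per the submitters' processing notes. Annotation, strand setting and the treatment of multi-mapping reads are not stated. Deposited RPKM times length gave whole multiples of 1 step per library for 100% of 179720 nonzero values (tolerance 0.01 read), from which reads and totals were worked back; 96.7% to 97.1% of each total lay in listed genes.

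Genes with 0.2 reads per 1e6 listed reads in 2 libraries and 15 reads in all were tested (18156). RPKM were scaled by TMM factors (trimming 0.3 of M and 0.05 of A values), computed in Python. The fits used limma 3.58.1 in R 4.3.3 (trend and robust options), and permutation tests used Python 3.11.15. The fits were also run on simulated counts, with the same spread setting for every gene and no replicate effect. That spread was not matched to these libraries, so the simulation cannot show how often calls here are wrong. No 2 libraries of a group were alike within sampling error (chi-square over its degrees of freedom, 22.6 to 51.2). Coordinates are from GENCODE M21 and RefSeq on GRCm38, the build of mm10. Copies were searched at 95% identity over at least 100 bases. Members and gene lists were chosen with earlier results of these data known. Named were all members, the other subunits and assembly genes, up to 4 genes of each marker list with the lowest p, and the 6 genes nearest each mean profile; Foxi1 was added, and 1 gene that the rule named is not reported here.
Alternatives covered the pseudocount (0.01 and 1), scaling, filter, covariate, replicate block, voom on the recovered reads, each depth class and leaving out each library.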

Additional observations from a re-analysis of the deposited data

Results flagged for a closer look

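In 30 groups of 4 libraries (10 genes and 5 ratios in 2 genotypes), 1 library stood apart from the others of its genotype. Scaled RPKM of Atp6v0a1 in male mutant replicate 2 was 16.2, against 12.8 to 13.2 in the other mutant libraries. Chance alone gives about 1 such case in 20 groups. Without that library the log2 change of Atp6v0a1 was -0.07 in place of 0.04 (limma, adjusted p = 0.778 and 0.872; 0.513 to 0.955 over the libraries left out in turn).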

How the results depend on the processing

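All 5 renal isoforms were called lower under all 18 alternatives, and the 5 paralog ratios kept their direction under all 15 of theirs. Members whose call or sign changed were all ubiquitous paralogs. In the deep libraries Atp6v0d1 was at -0.29, Atp6v1b2 at -0.38 and 0 ubiquitous subunits were called lower; in the shallow ones the values were -0.36, -0.42 and 0, with Atp6v0a1 at -0.056 and 1593 genes called lower in all. Leaving out each library in turn gave -0.48 to -0.34 for Atp6v1b2, -0.50 to -0.22 for Atp6v1g1, -0.087 to 0.14 for Atp6v0a1, and 1 to 3 ubiquitous subunits called lower. The main fit had no term for replicate number, which coincides with depth class. The replicate numbers were not taken as pairing the libraries, since the deviations of same-numbered control and mutant libraries correlated at 0.25 in males and 0.07 in females. A correlation over all genes cannot say whether a single gene differs with depth class. With a replicate block Atp6v1g1 passed (-0.37, adjusted p = 0.0397), and no other member changed its call; among the other pump genes Atp6ap2 (adjusted p = 0.0216), Dmxl1 (0.0379), Tldc1 (0.0392) and Atp6v0a2 (0.0426) passed with it.

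Uncalled genes near 0 changed sign. In the deep libraries Atp6v0b was at -0.12, Tmem199 at -0.016, Tbc1d24 at 0.026 and Ctsk at -0.012; in the shallow ones Atp6v0e was at 0.18, Ccdc115 at 0.18 and Nfatc1 at -0.024. Ccdc115 was at 0.011 with RPKM as deposited and at 0.0067 with median-of-ratios scaling. With libraries left out in turn the ranges were -0.085 to 0.11 for Atp6v0b, -0.12 to 0.12 for Atp6v0e, -0.0081 to 0.17 for Tmem199, -0.16 to 0.21 for Ccdc115, -0.043 to 0.12 for Dmxl2 and -0.0012 to 0.074 for Oxr1. The cause was not tested.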

Other observations

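Reads on Atp6v0c and on its near-identical pseudogene Atp6v0c-ps2 divided in 2 ways among the libraries. Atp6v0c took 63.5% and 58.3% of their joint reads in the female controls, 65.4% in female mutant replicate 1 and 64.7% in male mutant replicate 2. In the male controls it took 36.6% and 33.4%, in female mutant replicate 2 36.3% and in male mutant replicate 1 37.5%. The division followed neither genotype, sex nor depth class. Together the pair held 51936 reads, of which 25787 were on the pseudogene.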
